A study of Mus musculus and Homo sapiens with 4 samples.

Results

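Expression of 10 genes of desmosomes, keratin filaments and epithelial junctions was examined in 4 retrovirally infected tumour lines, each hybridised to a single Affymetrix 3' array. The genes encode the desmosomal proteins DSP, JUP, PKP2, DSG2 and DSC2, the keratins KRT8, KRT18 and KRT19, the tight junction scaffold TJP1 and the epithelial adhesion molecule EPCAM. The 2 mouse arrays held LM8 osteosarcoma cells infected with a pSIREN-RetroQ vector carrying a short hairpin RNA against mouse Merm1 (LM8 knock-down) and LM8 cells infected with pSIREN-RetroQ-control (LM8 control). The 2 human arrays held A375M melanoma cells with the corresponding human Merm1 vector (A375M knock-down) and A375M cells with the control vector (A375M control). All 4 lines thus carried an integrated retroviral vector. The product of Merm1, also named Wbscr22 and now Bud23 or BUD23, methylates 18S ribosomal RNA. The labels do not say whether an infected line was a pool or grew from 1 clone.

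The genes were taken as every probe set whose platform symbol was 1 of the 10 names. This gave 24 of 45037 non-control probe sets in LM8 and 17 of 54613 in A375M, and all 10 genes were represented on both platforms. The names were chosen partly on measured values, since results of these arrays were known, among them the differences of DSP in A375M and of Epcam and Tjp1 in LM8. All levels and differences below are therefore a description, and no test was made. Values are log2 RMA expression values, and each difference subtracts the control array from the knock-down array of that line. Each group held 1 array, so no difference has a replicate check and the precision is limited by this number. Differences of several kept probe sets for the same gene spread with an SD whose median was 0.12 for LM8 genes and 0.071 for A375M genes. This gauge is technical and holds neither the variation of repeated cultures nor that of repeated infections.

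Desmosomes are spot-like junctions that tie the keratin filaments of neighbouring cells together. The cadherins desmoglein and desmocollin reach across the gap, plakoglobin and the plakophilins bind their tails inside the cell, and desmoplakin links that plaque to intermediate filaments. Keratin 8 pairs with keratin 18 or 19 in simple epithelia, ZO-1 (TJP1) anchors tight junction strands to actin, and EPCAM is a surface glycoprotein of simple epithelia. Osteosarcoma and melanoma cells are not epithelial. Their intermediate filaments are mainly vimentin, although melanoma cells can also make keratins 8 and 18 and desmosomal proteins.

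The labels were checked first. The target Bud23 read 8.48 in the LM8 knock-down array and 10.61 in the LM8 control array, a difference of -2.13. The bright BUD23 probe set read 8.38 in the A375M knock-down array and 10.70 in the A375M control array, a difference of -2.32. Osteoblast markers exceeded the array median in both LM8 arrays for 7 of 7 genes measured, and melanocyte markers did so in both A375M arrays for 8 of 9. The criterion is loose, since osteoblast markers also passed it in A375M for 5 of 9 genes and melanocyte markers in LM8 for 3 of 10. Of 12 simple epithelium markers, 4 exceeded the median in both LM8 arrays and 7 in both A375M arrays. Over all genes, 11646 of 18193 exceeded it on 1 or both LM8 arrays and 13244 of 19773 on 1 or both A375M arrays. Nothing on epithelial expression is read from these counts. The summed linear level of the 12 markers was 415 in the LM8 knock-down array against 401 in the LM8 control array. In A375M it was 2263 in the knock-down array against 2283 in the control array. KRT18, at 10.78 in the knock-down array and 10.82 in the control array, was the brightest of these markers in A375M. E-cadherin (Cdh1, CDH1), the defining epithelial cadherin, lay below the array median in all 4 arrays. Exact ties between the knock-down and control arrays made up 45.4% of human and 0.705% of mouse probe sets.

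Where a gene had several probe sets, the one with the highest mean stood for it, and the gene was kept when this probe set lay above the median of all non-control probe sets on 1 or both arrays of its line. The medians were 5.28 in the LM8 knock-down array and 5.29 in the LM8 control array, and 4.67 in the A375M knock-down array and 4.64 in the A375M control array. Probe sets below the median in both arrays are called dim here, since they give little signal over background. Of the 10 genes 4 were kept in LM8, where 11646 of all 18193 genes were. In A375M 7 were kept, where 13244 of all 19773 genes were. TJP1 and JUP were kept in both lines, PKP2 and EPCAM in LM8 and not in A375M, and DSP, DSG2, DSC2, KRT8 and KRT18 in A375M and not in LM8. KRT19 was dim in both. The plots of all probe sets by line show these levels. Mouse and human arrays are different designs, so no level was compared between the lines.

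**Figure D1:**
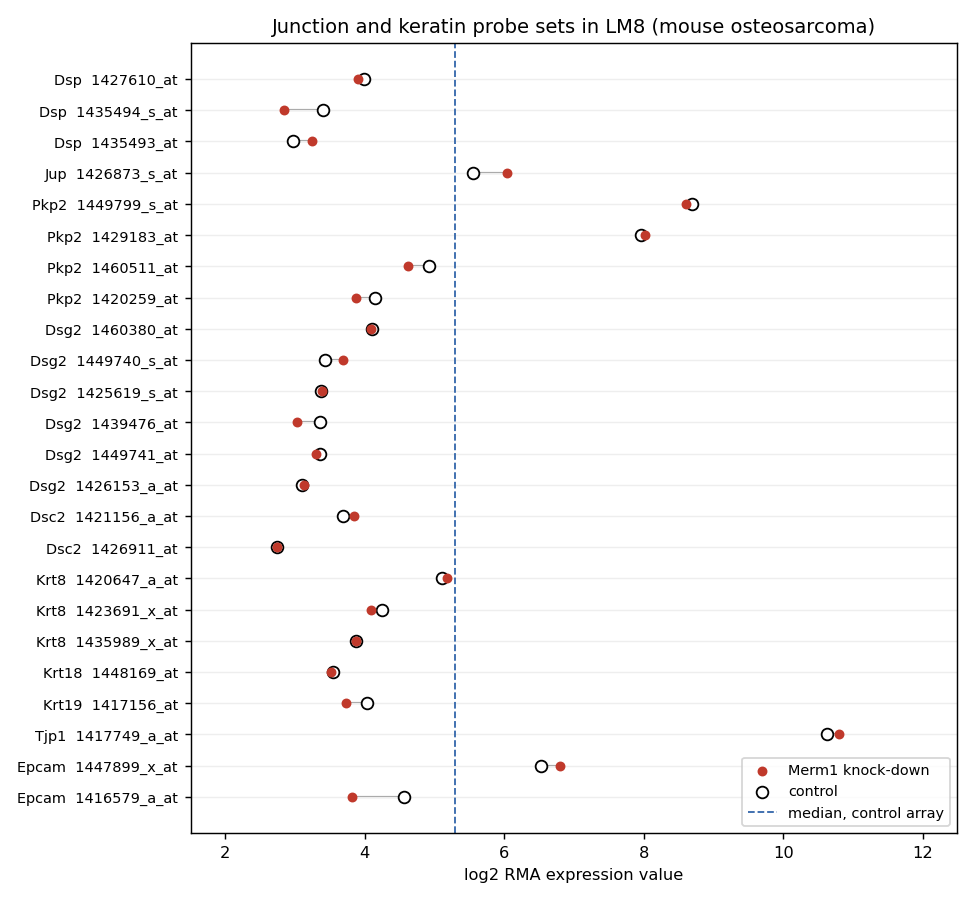
Log2 RMA values of the 24 LM8 probe sets of the 10 genes, 1 row a probe set, with a filled point for the knock-down array, an open point for the control array and a dashed line at the control array's median of 5.29. The 5 probe sets above the median belong to Jup, Pkp2, Tjp1 and Epcam, and Jup lies to the right in the knock-down array by 0.49.

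**Figure D2:**
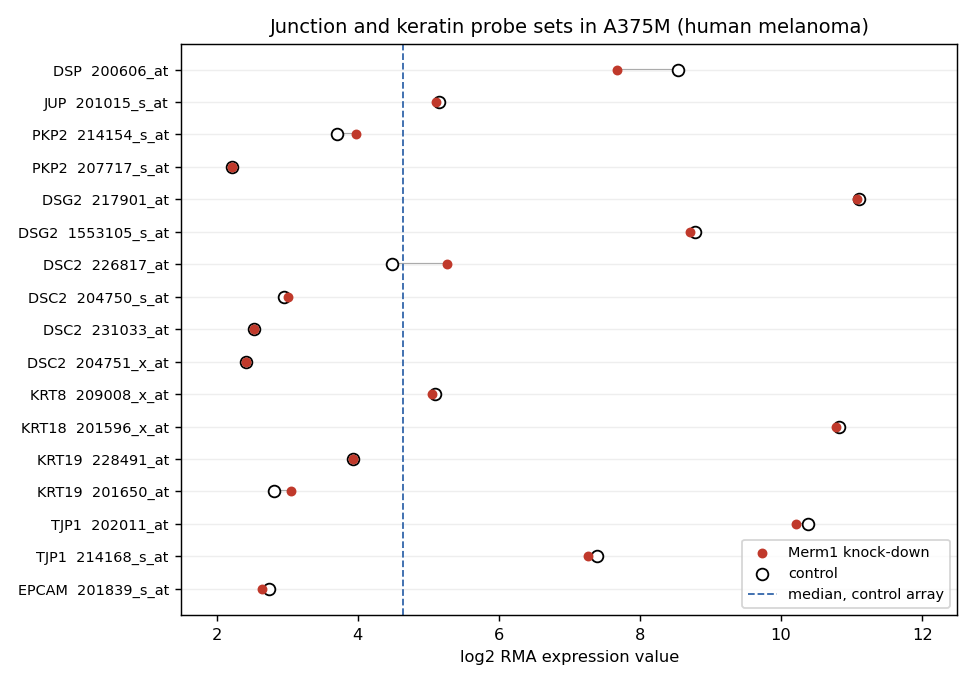
Log2 RMA values of the 17 A375M probe sets of the 10 genes, 1 row a probe set, with a filled point for the knock-down array, an open point for the control array and a dashed line at the control array's median of 4.64. DSP lies at 7.68 in the knock-down array and 8.55 in the control array, while DSG2, KRT18 and TJP1 lie close together in both.

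In A375M DSP differed downward, while DSG2 and JUP differed by less than the spread between probe sets. DSC2 was higher on 1 of 4 probe sets, and was kept only through the knock-down array, where it is higher. Nothing on the desmosomal genes as a group is therefore read from it. The single DSP probe set, 200606_at, read 7.68 in the knock-down array and 8.55 in the control array. The knock-down array therefore held 54.8% of the control level, a difference of -0.87 or 1.83-fold lower, and this was the 11th lowest difference among 13244 kept genes. Both values lay well above the array medians, and no other probe set on either array had the same value. In these bulk samples fewer cells that make a transcript and less of it per cell cannot be told apart. The probe set of DSP-AS1, an antisense gene at the same locus, was dim at 3.53 in the knock-down array and 3.78 in the control array, a difference of -0.25.

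Of the desmosomal cadherins of A375M, DSG2 was nearly level and DSC2 was higher on a single probe set. DSG2, desmoglein 2, had a bright probe set, 217901_at, at 11.08 in the knock-down array and 11.11 in the control array, a difference of -0.03. Its other probe set, 1553105_s_at, read 8.71 in the knock-down array and 8.78 in the control array, a difference of -0.07. Both DSG2 differences lay within the gauge of 0.071. DSC2, desmocollin 2, read 5.27 in the knock-down array and 4.48 in the control array on probe set 226817_at, a difference of 0.79 or 1.72-fold higher. The control value was below the array median, and the knock-down value recurred in 180 other probe sets of that array, so the size of the difference is imprecise. The other 3 DSC2 probe sets were dim, with differences of 0.05, 0 and 0. Averaged over its probe sets, DSC2 differed by 0.21 and was not kept.

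The genes of plaque proteins that bind those cadherins lay near or below the array median in A375M. JUP, plakoglobin, read 5.11 in the knock-down array and 5.15 in the control array, a difference of -0.04. These values were shared with 107 other probe sets of the knock-down array and 203 of the control array. PKP2, plakophilin 2, was dim on both probe sets, at 3.97 in the knock-down array and 3.71 in the control array on one and 2.22 in both arrays on the other. The difference of 0.26 on the first has a control value shared with 515 other probe sets and carries little information. Of the 17 A375M probe sets of the 10 genes, 12 had a value on at least 1 array that recurred in another probe set, and 4 were identical in both arrays. The labels name no step that would produce recurring values.

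The keratin pair of A375M was nearly level between the arrays. KRT18 read 10.78 in the knock-down array and 10.82 in the control array, a difference of -0.04. KRT8 read 5.05 in the knock-down array and 5.10 in the control array, a difference of -0.05. Both are represented by a single probe set whose name ends in _x_at, which marks probes that can match other transcripts, and both genes have many processed pseudogenes, so their signals may include other transcripts. KRT19 was identical at 3.93 on one probe set and dim on the other, at 3.06 in the knock-down array and 2.81 in the control array.

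Of the remaining A375M genes, TJP1 was slightly lower in the knock-down array on both of its bright probe sets. Probe set 202011_at read 10.22 in the knock-down array and 10.39 in the control array, a difference of -0.17. Probe set 214168_s_at read 7.26 in the knock-down array and 7.39 in the control array, a difference of -0.13. These differences exceeded the gauge of 0.071. EPCAM was dim, at 2.64 in the knock-down array and 2.75 in the control array, and the control value recurred in 564 other probe sets.

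Over the 7 kept genes in A375M, 6 were lower and 1 was higher in the knock-down array, with a median difference of -0.04 against a median of 0 over all 13244 kept genes. Of those kept genes 40.3% were lower and 29.0% were higher by any amount. DSP was the 1 gene at least 1.5-fold lower, where 0.37% of all kept genes were, and DSC2 the 1 gene at least 1.5-fold higher, where 0.378% of all kept genes were. DSP had been chosen with this difference known, so these counts are a description. DSC2 was kept only through the knock-down array, where it is higher, so nothing is read from its count. None of the 7 differed by 2-fold, where 0.0453% of all kept genes were lower and 0.0831% higher. The plot of differences against level places the genes among all kept genes.

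**Figure D3:**
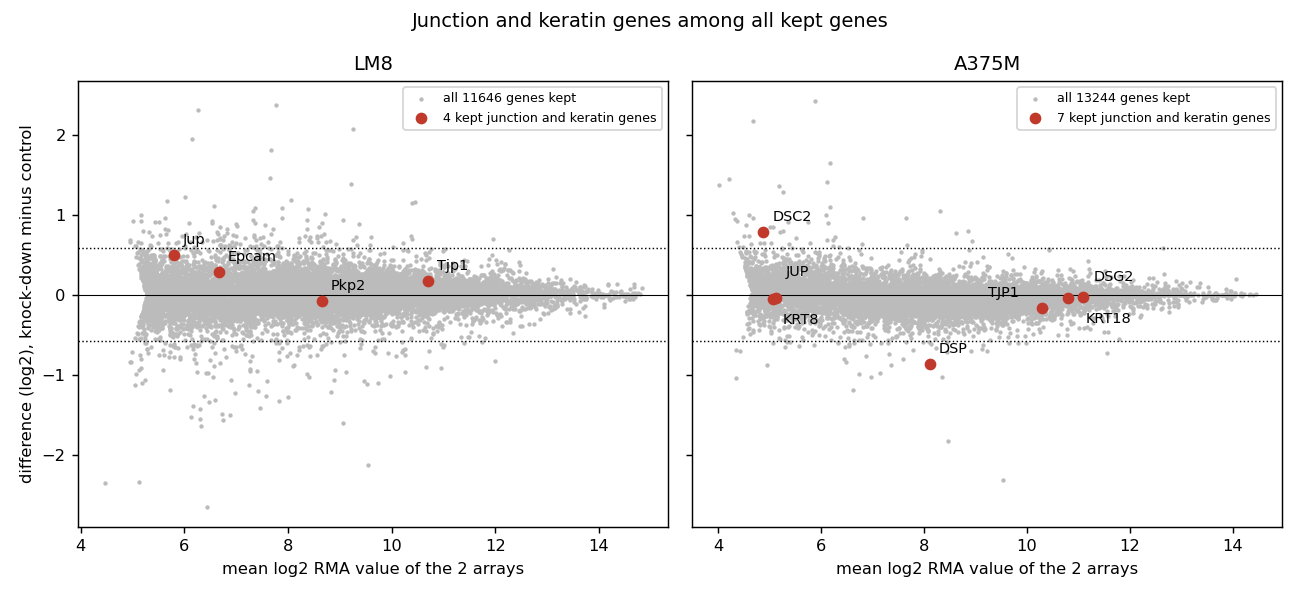
Difference (log2, knock-down minus control) against the mean log2 RMA value of the array pair for all kept genes (grey) and the kept genes among the 10 (red), with LM8 left, A375M right and dotted lines at 1.5-fold. DSP at -0.87 and DSC2 at 0.79 lie outside the dotted lines in A375M, and all 4 kept genes of LM8 lie inside them.

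In LM8 none of the 4 kept genes differed by 1.5-fold. Jup differed by 0.49, Epcam by 0.28 on its brighter probe set, Tjp1 by 0.17 and Pkp2 by -0.08. Plakoglobin, encoded by Jup, is shared by desmosomes and adherens junctions and is a close relative of beta-catenin. Its single probe set, 1426873_s_at, read 6.04 in the knock-down array and 5.55 in the control array. This is 1.41-fold higher and ranked 227th from the highest of 11646 kept genes. The control value lay close to the array median, and the probe set name marks probes shared between transcripts.

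Pkp2 lay well above the array median in LM8, while Dsp, Dsg2 and Dsc2 were dim. Probe set 1449799_s_at read 8.61 in the knock-down array and 8.69 in the control array, a difference of -0.08. Probe set 1429183_at read 8.03 in the knock-down array and 7.96 in the control array, a difference of 0.07. The bright probe sets thus had opposite signs, each within the gauge of 0.12. The dim Pkp2 probe sets differed by -0.30 and -0.28. Tjp1 read 10.80 in the knock-down array and 10.63 in the control array on its only probe set, a difference of 0.17 or 1.12-fold higher.

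The Epcam probe sets disagreed. Probe set 1447899_x_at read 6.80 in the knock-down array and 6.52 in the control array, a difference of 0.28. Probe set 1416579_a_at was dim and went the other way, at 3.82 in the knock-down array and 4.56 in the control array, a difference of -0.74. The mean of both differed by -0.23. The brighter probe set is marked as able to match other transcripts, so no direction is given for Epcam.

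The other 6 genes were dim in LM8 on every probe set. The 3 Dsp probe sets differed by -0.09, -0.56 and 0.27, the 6 Dsg2 probe sets by -0.33 to 0.25, and the Dsc2 probe sets by 0.16 and 0. Krt8 came closest to the array median, at 5.18 in the knock-down array and 5.10 in the control array on 1420647_a_at. Krt18 read 3.52 in the knock-down array and 3.54 in the control array, and Krt19 read 3.73 in the knock-down array and 4.04 in the control array. Over all 24 probe sets 12 were lower, 10 higher and 2 identical, and 5 of the 6 genes with several probe sets had differences of both signs. Since 19 of the 24 were dim, nothing is read from these signs.

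Over the 4 kept genes in LM8, 3 were higher and 1 was lower in the knock-down array when Epcam is counted by its brighter probe set, with a median difference of 0.22 against 0.015 over all 11646 kept genes. Of those kept genes 53.8% were higher and 46.0% were lower by any amount. None of the 4 differed by 1.5-fold, where 1.16% of all kept genes were higher and 1.31% lower, nor by 2-fold, where 0.155% were higher and 0.318% lower. Without the filter on low values the median over the 10 genes was 0.032, and when probe sets of a gene were averaged that over the 4 kept genes was 0.010.

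Genes that act with these 10 were described from 7 lists. In LM8, 40 of 83 measured genes were kept, with 17 lower, 23 higher and a median of 0.031. Zeb1, which encodes a zinc finger repressor of epithelial genes, read 8.69 in the knock-down array and 7.95 in the control array, a difference of 0.73, and differed by 0.26 on its other kept probe set. Snai1, a repressor gene of the same programme, read 5.80 in the knock-down array and 5.36 in the control array, a difference of 0.44. Zeb2, which encodes a close relative of the Zeb1 product, went the other way at -0.28, with its 5 kept probe sets between -0.62 and 0.09. Over the 8 genes of the list of repressors and mesenchymal filament genes 4 were lower and 4 higher, with a median of 0.007. Zeb1 was the 1 kept gene of the 40 at least 1.5-fold different, where 1.16% of all kept genes were higher and 1.31% lower. The further listed genes that were higher by at least 0.32 were Grhl1 (0.46), an epithelial transcription factor gene, and Pkp3 (0.43), which encodes plakophilin 3, both with a control value below the array median. These 2 genes were kept only through the knock-down array, where they are higher, so the filter itself contributes to the count of 4 higher and 0 lower by that amount, and nothing is read from it. Over all kept genes 5.78% were higher and 5.28% lower by it.

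Repressors of this kind bind E-box letters, and for that reason promoters are shown for the junction genes kept in LM8 that had a window, with Dsp beside them. In the search of the 10 genes windows on a single chromosome were left out, so a gene without a window here may still have one. Windows of 300 bases, from 250 before to 50 after the annotated start, were examined for 6 of the 10 mouse genes (RefSeq, GRCm38.p6). They are printed 5′ to 3′ on the gene's strand, with CACCTG, or CAGGTG where it lies on the opposite strand, in capitals.
Jup, chr11:100397741-100398040, minus strand: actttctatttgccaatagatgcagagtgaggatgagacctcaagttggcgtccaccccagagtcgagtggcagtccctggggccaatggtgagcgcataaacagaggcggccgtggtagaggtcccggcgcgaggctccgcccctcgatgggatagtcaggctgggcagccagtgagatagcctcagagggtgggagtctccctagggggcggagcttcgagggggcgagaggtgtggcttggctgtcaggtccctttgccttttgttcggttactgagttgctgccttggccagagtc
Tjp1, chr7:65371195-65371494, minus strand: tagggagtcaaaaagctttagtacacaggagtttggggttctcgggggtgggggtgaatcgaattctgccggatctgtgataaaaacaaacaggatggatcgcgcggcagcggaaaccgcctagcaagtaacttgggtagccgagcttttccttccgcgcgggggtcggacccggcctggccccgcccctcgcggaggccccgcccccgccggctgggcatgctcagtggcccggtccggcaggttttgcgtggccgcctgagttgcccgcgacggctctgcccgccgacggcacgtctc
Epcam, chr17:87635729-87636028, plus strand: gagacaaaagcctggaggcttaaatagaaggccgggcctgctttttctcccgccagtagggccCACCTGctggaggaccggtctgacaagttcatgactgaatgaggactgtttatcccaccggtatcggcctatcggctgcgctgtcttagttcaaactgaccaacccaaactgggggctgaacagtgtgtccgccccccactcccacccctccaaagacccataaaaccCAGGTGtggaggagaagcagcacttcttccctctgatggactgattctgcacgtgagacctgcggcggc
Dsp, chr13:38151044-38151343, plus strand: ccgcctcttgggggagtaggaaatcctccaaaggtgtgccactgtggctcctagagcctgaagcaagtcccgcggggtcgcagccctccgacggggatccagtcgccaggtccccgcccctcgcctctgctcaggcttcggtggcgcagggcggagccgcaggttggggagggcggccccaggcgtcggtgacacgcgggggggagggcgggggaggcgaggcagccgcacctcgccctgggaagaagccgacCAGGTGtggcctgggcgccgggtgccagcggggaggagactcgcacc

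The Epcam window held 2 matches, starting at bases 64 and 232 of the window, and the Dsp window 1 match, at base 254. The Krt8 and Krt18 windows, not printed, held 1 match each. Jup and Tjp1 had none of these letters in this window. Over all 32851 windows of the same length, with no chromosome left out, 20.2% held at least 1 match, as did 22.6% of genes. The windows of the 6 genes held 57% to 73% G and C letters, against a median of 52.7% over all windows. The shares are not adjusted for this. A match describes the letters and says nothing on binding in LM8 cells.

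Among LM8 adherens junction genes 5 of 9 kept were lower and 4 higher, from -0.21 for Nectin2, a nectin adhesion receptor gene, to 0.26 for Afdn, which encodes the actin linker afadin. The 6 kept of 18 measured tight junction genes lay between -0.12 for Cldn12 and 0.044 for Cldn3, and the dim ones are not described. This range is that of the brightest probe sets. Kept probe sets of Pard3 ranged from -0.34 to 0.35, and those of Cldn3 and Cgnl1 reached 0.30 and 0.31. Hemidesmosome and cytolinker genes had a median of 0.22 over 5 kept genes. Of these 4 were higher, where 53.8% of all kept genes were, with Itga6, the integrin alpha 6 gene, at 0.30 and Macf1 at 0.30. Plec, at 0.047, was within the gauge of 0.12, and its kept probe sets ranged from -0.27 to 0.08. Vim, the vimentin gene, differed by 0.026 and Snai2 by -0.013. Cdh1 and Cdh2 were dim, with differences of -0.63 and -0.05.

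In A375M, 49 of 78 measured genes were kept, with 21 lower, 14 higher, 14 identical and a median of 0. Of the 6 kept hemidesmosome and cytolinker genes 5 were lower and 1 was identical, where 40.3% of all kept genes were lower, and 0 differed by 1.5-fold. DST, MACF1 and PLEC were lower by at least 0.32, and LAMB3 lay within the gauge. The median was -0.28, which was -0.24 to -0.31 under other scalings of the arrays. DST, which encodes the plakin dystonin, read 8.09 in the knock-down array and 8.64 in the control array, a difference of -0.55, and differed by -0.55 to -0.27 over its 3 kept probe sets. MACF1, a plakin that links microtubules to actin, read 8.90 in the knock-down array and 9.31 in the control array, a difference of -0.42. Its 7 kept probe sets ranged from -0.72 to 0. PLEC, which encodes plectin, read 7.78 in the knock-down array and 8.12 in the control array, a difference of -0.34, and -0.17 on its other probe set. The remaining gene lower by at least 0.32 was KLF5 (-0.33), an epithelial transcription factor gene. Of the 49 genes 4 were lower and 0 higher by that amount, and over all kept genes 2.78% were lower and 2.11% higher by it.

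**Figure D4:**
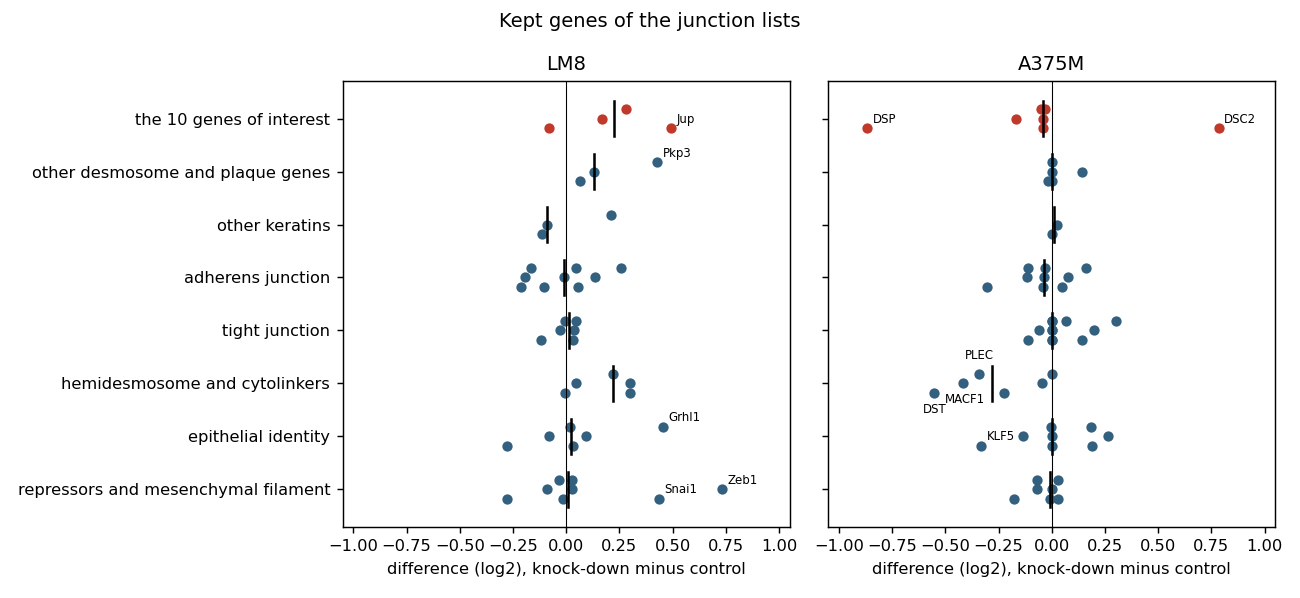
Differences (log2, knock-down minus control) of kept genes by list, 1 point a gene with small vertical offsets for legibility, a bar at each list's median, and LM8 left and A375M right. Names mark genes with a difference of at least 0.32 in either direction, which are DSP, DST, MACF1, PLEC and KLF5 on the lower side and DSC2 on the higher side in A375M, and Jup, Pkp3, Grhl1, Snai1 and Zeb1 on the higher side in LM8.

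In A375M ZEB1 differed by -0.07 on its brightest probe set and by -0.21 to -0.07 over its 4 kept probe sets. SNAI1 differed by 0.03, within the gauge, and ZEB2 was identical. VIM differed by -0.01 on its brightest probe set, within the gauge, and by -0.25 on its other kept probe set, beyond it. SNAI2 differed by -0.18, more than the gauge. CDH2, N-cadherin, the main cadherin of mesenchymal cells, read 10.35 in the knock-down array and 10.27 in the control array, a difference of 0.08. CDH1 was identical and dim at 2.75. Other desmosome and plaque genes kept in A375M differed by -0.02 to 0.14 on their brightest probe sets. Of these 5 genes 3 were identical in both arrays. PERP, a tetraspan desmosome protein gene, read 11.55 in the knock-down array and 11.57 in the control array. Its kept probe sets ranged from -0.21 to 0.07, the lowest of them beyond the gauge. No other kept desmosome or plaque gene had a difference as low as that of DSP, a comparison that was not tested.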

How the data were processed

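RNA of 4 cell lines was labelled as biotinylated cRNA and hybridised to 1 Affymetrix array each, following the protocols in the labels. The authors deposited log2 values for each probe set, which come from RMA according to the submitters' processing notes. RMA subtracts background, equalises the arrays' distributions and summarises probes, so a global shift would not be seen. Gene symbols came from the platform annotation, in which 34945 mouse and 41091 human probe sets had 1 symbol. Sets with several symbols or none were not used.

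Genes were filtered at the median (50th percentile) of the array, and counts used 1.5-fold, with 2-fold and a log2 difference of 0.32 as alternatives. Further alternatives were no filter, the 70th percentile, median centring, a second quantile normalization, subtraction of a loess curve (statsmodels 0.14.6, span 0.4), averaging over a gene's probe sets, omission of _x_at and _s_at probe sets, and 32 added to linear values. The members and lists were chosen with earlier results of these data known. Genes named from the lists were kept genes with a difference of at least 0.32 in either direction and line and CDH1, CDH2, VIM, ZEB1 and SNAI2, with further examples at the ends of a list's range chosen after their values were seen. The scripts (Python 3.11.15) were tested on simulated data. Markers of 6 cell types were checked. Stratified keratinocyte markers exceeded the median in both arrays for 3 of 8 genes in LM8 and 2 of 9 in A375M, leukocyte markers for 1 of 5 and 3 of 5, and endothelial markers for 2 of 5 and 3 of 5.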

Additional observations from a re-analysis of the deposited data

Results flagged for a closer look

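Tjp1 differed in opposite directions in the lines, by 0.17 in LM8 and by -0.17 in A375M, each more than the median SD between probe sets of 1 gene in its line. Many genes differed by more, since Tjp1 ranked 2072nd from the highest of 11646 kept genes in LM8. In A375M TJP1 ranked 1442nd from the lowest of 13244. The LM8 difference was known when the names were chosen. The difference between the lines was not tested, since each group held 1 array.

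Epcam differed by 0.28 in LM8 on its brighter probe set and EPCAM by -0.11 in A375M, where it was dim. The other LM8 probe set differed by -0.74, in the direction of A375M, and this difference between the lines was not tested either.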

How the results depend on the processing

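No paired analysis was possible because each group held 1 array and the results come from no test. In A375M the 1 gene at least 1.5-fold lower (DSP) was called under each alternative other than the 2-fold threshold, which gave 0 lower and 0 higher. DSP has 1 probe set, with no _x_at or _s_at mark. Averaging, omission of such probe sets, removal of the filter and the log2 threshold of 0.32 therefore could not change its call. The 1 gene at least 1.5-fold higher (DSC2) was at 0.38 with 32 added and at 0.21 and not kept when probe sets were averaged, and the count was 0 under both and 0 with the 70th percentile filter. In LM8 a log2 threshold of 0.32 gave 1 higher gene (Jup), and the median difference of 0.22 was 0.032 with no filter on low values, 0.045 with the 70th percentile filter, which kept 2 genes, 0.12 without _x_at and _s_at probe sets, which also kept 2 genes, and 0.010 with averaged probe sets. Of 114 values for single genes under alternatives, 12 moved by more than the gauge. Without _x_at and _s_at probe sets Epcam differed by -0.74 and Pkp2 by 0.07, and Jup, like JUP, KRT8, KRT18, PKP2 and EPCAM in A375M, had no value. With 32 added DSP differed by -0.78 and Jup by 0.31. Signal near background limits all dim values, and the cause of these changes was not tested.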

Other observations

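The plakins are giant linker proteins that join intermediate filaments, microtubules or actin to membranes, and DSP, DST, MACF1 and PLEC belong to them. They were grouped after their values were seen, so the following is a description with no test. In A375M DSP differed by -0.87, DST by -0.55, MACF1 by -0.42 and PLEC by -0.34, while the plakin EVPL was identical at 4.80 and PPL was dim. In LM8 Dst differed by 0.22, Macf1 by 0.30, Plec by 0.05 and Evpl by 0.07, and Dsp and Ppl were dim. The LM8 values of Plec and Evpl lay within the gauge of 0.12, and kept Plec probe sets in LM8 ranged from -0.27 to 0.08. The signs of the other plakin differences were the same after median centring, a second quantile normalization and subtraction of a loess curve, apart from EVPL in A375M, which was identical as deposited and differed by -0.03 after centring.

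ESRP1, which encodes an epithelial splicing regulator, was bright in A375M at 7.94 in the knock-down array and 7.75 in the control array, where CDH1 and EPCAM were dim. Its other kept probe set differed by 0.025. OCLN, the occludin gene, read 5.12 in the knock-down array and 4.82 in the control array, on 1 kept probe set of 4. ST14, the gene of the membrane protease matriptase, read 5.36 in the knock-down array and 5.10 in the control array. In the list of epithelial identity genes, which holds ESRP1 and ST14, 3 of 8 kept genes were lower, 3 higher and 2 identical. KLF5 (-0.33) and GRHL1 (-0.13) were among the lower ones. Of 12 kept tight junction genes, OCLN among them, 2 were lower, 4 higher and 6 identical. Both lists had a median difference of 0.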
